A study of Mus musculus with 12 samples.

Results

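Nuclear receptors are transcription factors of which many are switched by small lipophilic ligands, and coregulators are the proteins they recruit to raise or lower transcription. The mouse liver RNA sequencing data hold 34 genes chosen by name from these families, 30 receptors and 4 coregulators, out of 54532 genes in the deposited count table. The study asks how ANGPTL8, a secreted protein of liver and adipose tissue that takes part in inhibiting lipoprotein lipase, bears on lipid metabolism. All 12 libraries come from livers of wild-type mice on chow sampled 9 days after an adenovirus was given, with 3 libraries in each of 4 groups. ANG8 is the group given the virus meant to raise ANGPTL8, and Ad_GFP is its control virus. The shANG8 group received an adenovirus meant to knock ANGPTL8 down, and shCtrl is the control of that virus. All 4 groups carry an adenovirus, and no group without virus was analysed here. The sources used here give no strain, age, sex or viral promoter. Nothing in the labels ties each library to a mouse of its own, so p-values measure the spread between these libraries, which may in part be technical.

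A nuclear receptor binds DNA through a zinc finger domain and binds its ligand and coregulators through a second domain. Many receptors pair with a retinoid X receptor on sites built from the half-site AGGTCA, and the steroid receptors act as homodimers. In liver they are known for setting bile acid, lipid, glucose and drug metabolism. The NR4A receptors stand apart, since they need no known natural ligand and their genes are switched on within a short time by hormones, cytokines and stress.

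Libraries held 12537083 to 15144312 counts, and 14686 genes, among them 32 of the 34, passed the filter on low counts. The genes Hnf4g and Rarb, with 8 and 49 counts over all libraries, were not tested. Angptl8 itself was read at 165, 314 and 172 CPM (counts scaled to library size) in the ANG8 libraries, against 96.8, 80.4 and 90.05 CPM in the Ad_GFP libraries, and at 144, 143 and 79.2 CPM in the shANG8 libraries, against 340, 391 and 167 CPM in the shCtrl libraries. The rise under ANG8 passed the test and the lower level under shANG8 did not (edgeR adjusted p = 0.0201 and 0.235), and neither shows how much transgene was made, since the labels do not say from which species it comes. The call under ANG8 was lost without ANG8 replicate 2 or any 1 Ad_GFP library, and with the mitochondrial share in the model. The lower level under shANG8 passed with DESeq2, with no filter on low counts, with a replicate block and without shCtrl replicate 3. Between the 2 control viruses Angptl8 lay higher in shCtrl than in Ad_GFP, without overlap (1.75, SE 0.33, edgeR adjusted p = 0.338). Its mean was 299 CPM in shCtrl, above 217 CPM in ANG8, and 122 CPM in shANG8, above 89.1 CPM in Ad_GFP. Markers of some other cells moved with the ANG8 virus. No tested marker of B cells, endothelial cells, stellate cells, cholangiocytes, neutrophils or adipocytes was called. The summed level of 12 macrophage markers was 1101 to 1424 CPM in ANG8 and 443 to 605 CPM in Ad_GFP, and 10 of them rose. Of 9 T and NK cell markers 5 rose and 1 fell, with sums of 114 to 133 CPM in ANG8 and 43.5 to 62.2 CPM in Ad_GFP, and 3 of 5 markers of dividing cells rose. Of 8 hepatocyte markers, all of them detected, 6 fell, with sums of 21689 to 45531 CPM in ANG8 and 38624 to 56735 CPM in Ad_GFP. No marker on these lists passed under shANG8. In bulk liver RNA, fewer cells of a type and less RNA per cell cannot be told apart, and the part of these cells in the results on receptor genes was not tested.

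The results turn on Nr4a1 and Nr4a2, and the 250 bases upstream of a RefSeq transcript start of each are shown because both genes are known to respond to cyclic AMP through CRE half-sites. The sequences are from RefSeq on the build GRCm38.p6, chr15:101266596-101266845 on the plus strand for Nr4a1 and chr2:57124004-57124253 on the minus strand for Nr4a2. They run 5′ to 3′ toward the start, with each CRE half-site, TGACG or its reverse complement CGTCA, in capitals.
Nr4a1: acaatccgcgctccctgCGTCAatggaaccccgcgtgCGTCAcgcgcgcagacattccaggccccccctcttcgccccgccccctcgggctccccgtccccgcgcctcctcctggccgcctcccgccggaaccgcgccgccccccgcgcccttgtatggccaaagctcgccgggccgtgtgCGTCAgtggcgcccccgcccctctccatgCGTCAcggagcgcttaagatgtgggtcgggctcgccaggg
Nr4a2: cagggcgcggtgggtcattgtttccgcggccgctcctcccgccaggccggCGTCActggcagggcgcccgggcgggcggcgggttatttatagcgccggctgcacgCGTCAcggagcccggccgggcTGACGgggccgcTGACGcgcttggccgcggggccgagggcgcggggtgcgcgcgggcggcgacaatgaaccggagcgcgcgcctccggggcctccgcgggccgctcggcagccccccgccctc

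Each of these windows holds 4 half-sites. In Nr4a1 all 4 are in the orientation CGTCA, with first bases at -233, -213, -69 and -40 from the start. In Nr4a2 those at -200 and -144 are CGTCA and those at -123 and -111 are TGACG. The Nr4a1 window lies inside the interval that the count table gives for the gene, so transcripts from an earlier start would cross it. Motifs were read on both strands over the 250 bases before the start in 32851 RefSeq promoter windows of 27025 genes. Of these windows, 17.8% hold at least 1 half-site and 0.137% (45 windows) hold at least 4. Windows were found for 30 of the 34 genes, 47 in all, of which 8 hold at least 1 half-site and 2 hold at least 4. The full element TGACGTCA, which would count as 2 half-sites, is in 1.55% of all windows and in 0 of these 47. The receptor half-site AGGTCA is in 14.0% of all windows and in 8 of the 47, which belong to 7 genes. The motifs were chosen with the results on Nr4a1 and Nr4a2 known, and a match of letters is a description, not a binding site.

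Levels of the 34 genes spanned several orders of magnitude per kilobase of gene length. Hnf4a, a master regulator of the hepatocyte, stood first with a mean of 130.2 CPM per kilobase over the 12 libraries. It was followed by Rxra, the main partner receptor in liver, at 48.4, by Nr1i2, the pregnane X receptor PXR, at 42.1, and by Nr1h3, the liver X receptor LXR-alpha, at 41.8 CPM per kilobase. Esrra, Nr2f6, Nr1h2 and Rxrb lay between 29.3 and 12.9 CPM per kilobase, and Nr3c1, the glucocorticoid receptor, was at 9.35. Of 33 pairs of neighbours in this order, 32 overlapped between libraries. Hnf4a and Rxra were the pair that did not, with a lowest library of 94.3 for Hnf4a and a highest of 64.9 CPM per kilobase for Rxra. Nr4a1 and Nr4a2 lay low in the order, at 1.45 and 0.783 CPM per kilobase, and Vdr, Rarb and Hnf4g lay last at 0.0683, 0.0536 and 0.0172.

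**Figure D1:**
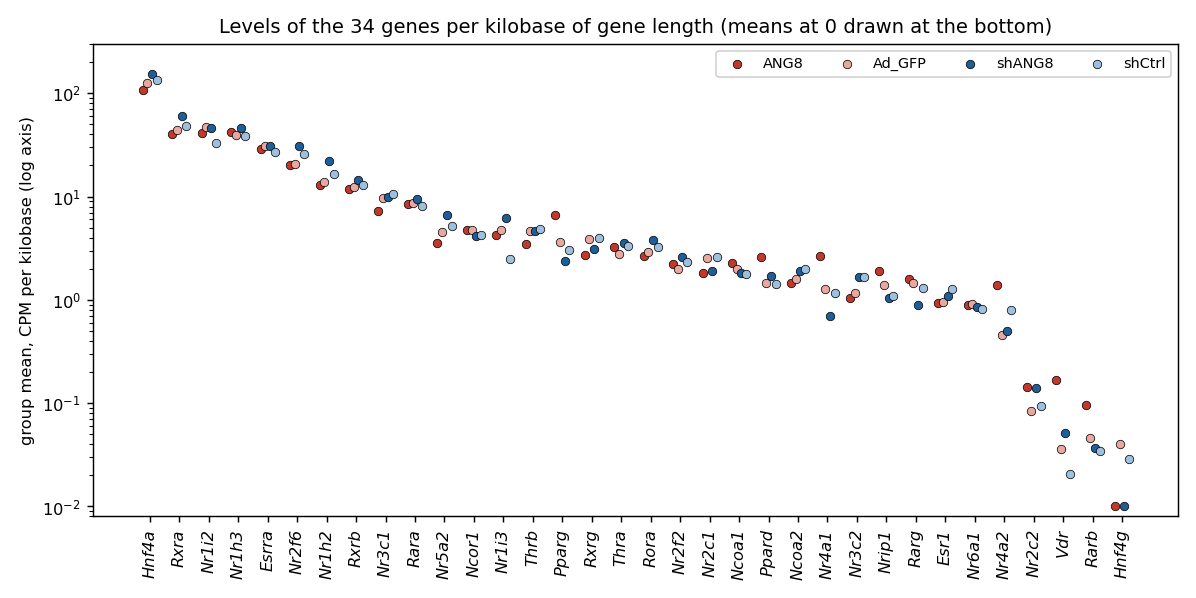
Mean level of each of the 34 genes in each group, in TMM-scaled CPM per kilobase of gene length on a log axis, with genes in order of their mean over all 12 libraries and 1 point per group of 3 libraries. Hnf4a stands above the other genes in all 4 groups, and the points of Nr4a1, Nr4a2, Pparg, Nr1i3 and Vdr are spread more widely than those of their neighbours such as Nrip1 or Ncoa2.

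The spread over the 12 libraries differed between the genes as well. Among the 32 tested genes Nr1h3 varied least, with a coefficient of variation of 9.16%. That of Nr4a1 was 63.4%, that of Nr4a2 60.5%, that of Pparg 54.9% and that of Nr1i3 47.3%. Vdr had the highest, 103%, on 67 counts in all.

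The overexpression comparison asked which of these genes differ between ANG8 and Ad_GFP. Nr4a1, Nr4a2 and Ppard rose, and no member fell at an adjusted p under 0.05. The 3 called genes are 9.38% of 32, where 13.5% of all tested genes were called with 7.08% called up and 6.39% called down. As a set, the receptor genes changed by small amounts. Their median SE was 0.213, with 0.260 over all tested genes. Their median log2 fold change was -0.04, with -0.00 over all tested genes, and 19 lay below and 13 above 0. The median absolute change was 0.178, with 0.367 over all tested genes, and 25 of 32 (78.1%) lay within 0.5 of no change, as did 61.7% of all tested genes. An unadjusted p under 0.05 was found for 9 of them (28.1%), near the 27.7% of all tested genes. The 3 libraries of ANG8 did not overlap those of Ad_GFP for 12 of 32 (37.5%), with 34.1% over all tested genes. Of these 12, 5 lay higher (15.6%, with 17.9% over all tested genes) and 7 lower (21.9%, with 16.2%).

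**Figure D2:**
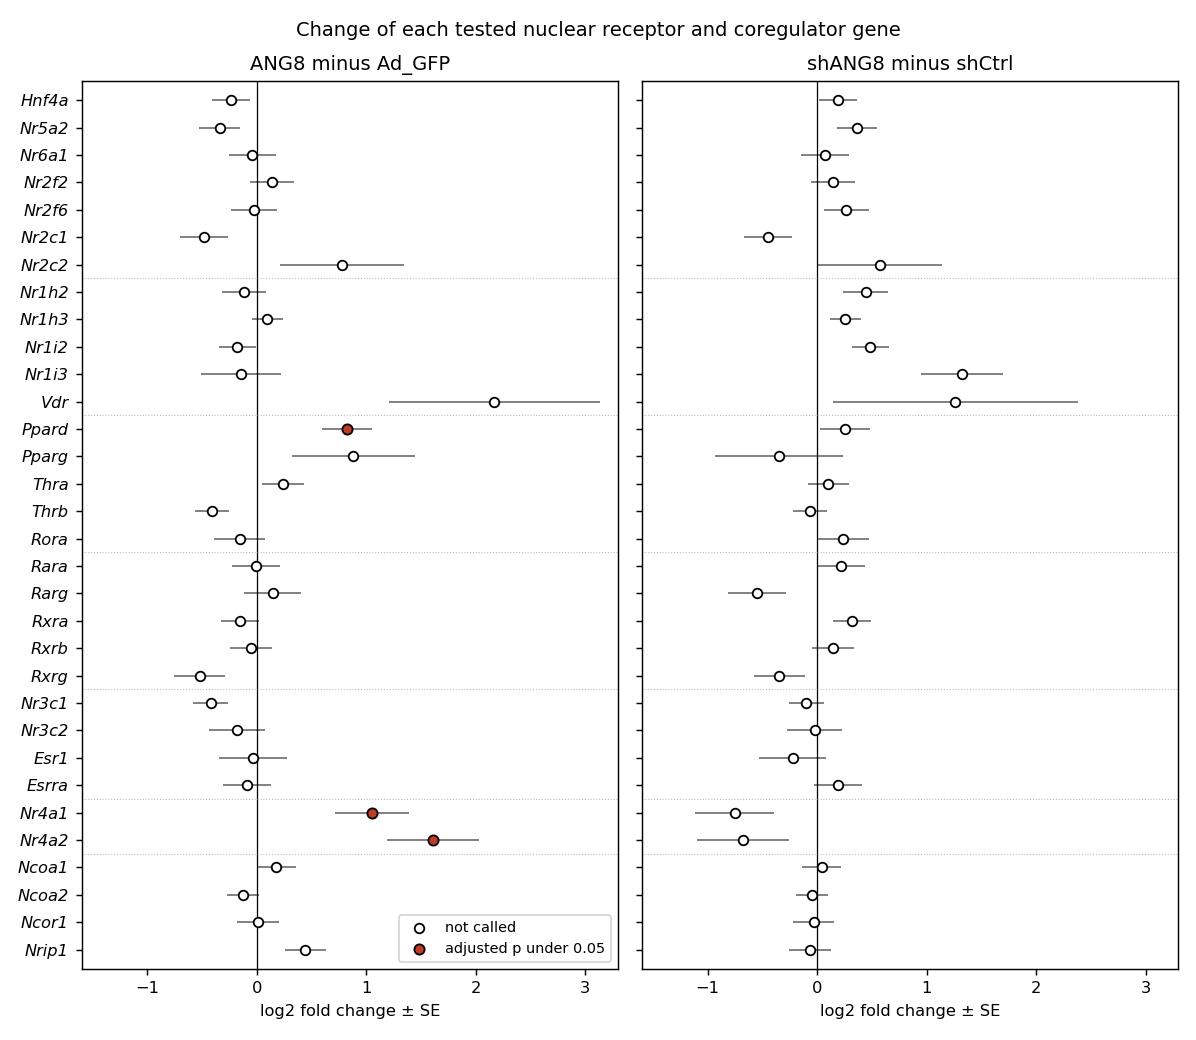
Log2 fold change with its SE for each of the 32 tested genes, for ANG8 minus Ad_GFP on the left and shANG8 minus shCtrl on the right, from the edgeR fit over all 12 libraries. Filled points are called at an adjusted p under 0.05. Only Ppard, Nr4a1 and Nr4a2 are filled, on the left, and no gene is filled on the right.

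Nr4a1 (ENSMUSG00000023034, GRCm38 chromosome 15, 101254269 to 101274795, plus strand, protein-coding) is a receptor gene induced early after many stimuli, which in mouse liver is known to respond to glucagon and to act on glucose production. Its level was 7.39, 13.7 and 6.85 CPM in the ANG8 libraries, against 3.61, 4.52 and 5.31 CPM in the Ad_GFP libraries. The groups did not overlap, and ANG8 replicate 2 stood highest. The means were 9.31 ± 3.80 CPM in ANG8 and 4.48 ± 0.854 CPM in Ad_GFP (SD, n = 3 each), so that it rose by 1.05 on the log2 scale (SE 0.34, edgeR adjusted p = 0.0488). The call was lost without any 1 library other than ANG8 replicate 3. It had an adjusted p of 0.0700 and 0.258 without ANG8 replicates 1 and 2, and of 0.165, 0.115 and 0.0657 without Ad_GFP replicates 1, 2 and 3. Without ANG8 replicate 2 the change was 0.68, and over these 6 settings it stayed between 0.68 and 1.21.

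Nr4a2 (ENSMUSG00000026826, chromosome 2, 57106830 to 57124003, minus strand, protein-coding) encodes the closest relative of Nr4a1. Its libraries held 5.87, 7.79 and 3.21 CPM in the ANG8 libraries, against 0.949, 2.89 and 1.68 CPM in the Ad_GFP libraries. Here too the groups did not overlap, although ANG8 replicate 3 lay close to Ad_GFP replicate 2. The means were 5.62 ± 2.30 CPM in ANG8 and 1.84 ± 0.979 CPM in Ad_GFP (SD, n = 3 each), a rise of 1.61 (SE 0.42, edgeR adjusted p = 0.0175). The adjusted p was 0.0586 without ANG8 replicate 1, 0.0844 without ANG8 replicate 2, 0.0830 without Ad_GFP replicate 1 and 0.0530 without Ad_GFP replicate 3. The third gene of the subfamily, Nr4a3, had 80 counts in all and was not tested.

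In the knockdown arm both NR4A genes had lower means in shANG8. Nr4a1 was read at 3.11, 1.97 and 2.25 CPM in the shANG8 libraries, against 3.94, 5.74 and 2.66 CPM in the shCtrl libraries, a change of -0.75 (SE 0.36, edgeR adjusted p = 0.635). Nr4a2 was read at 1.52, 2.28 and 2.25 CPM in the shANG8 libraries, against 2.71, 3.55 and 3.42 CPM in the shCtrl libraries (-0.68, SE 0.42, edgeR adjusted p = 0.736). The groups overlapped for Nr4a1 and did not for Nr4a2, and neither difference passed the test. The effect of the ANG8 virus minus that of the knockdown virus was 1.804 for Nr4a1 (SE 0.49, edgeR adjusted p = 0.0370) and 2.29 for Nr4a2 (SE 0.59, edgeR adjusted p = 0.0293). These 2 genes are 6.25% of the 32, where 6.62% of all tested genes were called for this difference, 3.72% up and 2.9% down. It shares the ANG8 and Ad_GFP libraries with the overexpression comparison. Both genes lost this call without ANG8 replicate 1 or 2, Ad_GFP replicate 1, or shCtrl replicate 1 or 2, with adjusted p-values of 0.0551 to 0.110 for Nr4a1 and 0.0503 to 0.0739 for Nr4a2. Nr4a1 also lost it without Ad_GFP replicate 2 or shANG8 replicate 2 or 3, and Nr4a2 without Ad_GFP replicate 3, shANG8 replicate 1 or shCtrl replicate 3.

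The mitochondrial share of the counts was 22.5% to 43.8% in ANG8 and 19.8% to 34.9% in Ad_GFP, and ANG8 replicate 2, with the highest NR4A levels, had the highest share. With this share added to the model, a choice made after seeing the data, Nr4a1 changed by 0.76 (edgeR adjusted p = 0.177) and Nr4a2 by 1.09 (0.0598). In this model 1 of the 32, Nr3c1, was called under overexpression, with 13.7% of all tested genes. For the difference, the adjusted p was then 0.0879 for Nr4a1 and 0.0602 for Nr4a2.

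**Figure D3:**
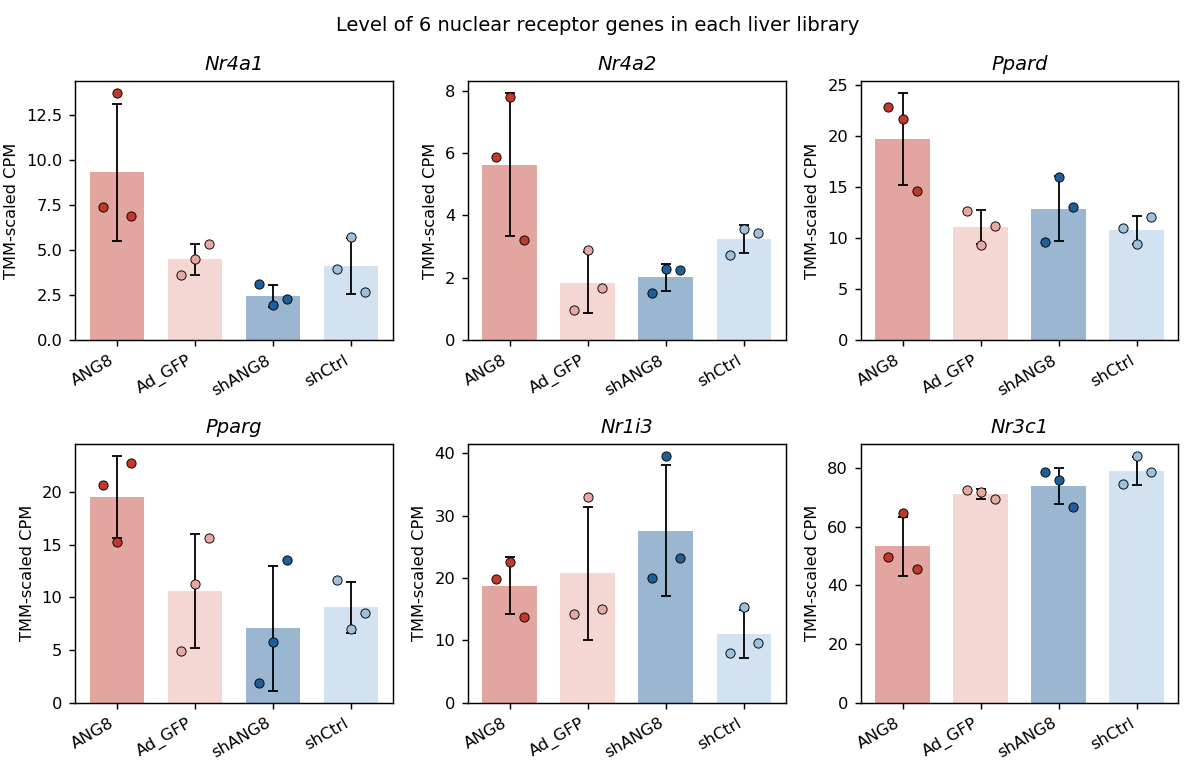
TMM-scaled CPM of 6 receptor genes in every library, with points for libraries, bars for the mean of 3 libraries and whiskers for the SD. The 3 ANG8 libraries of Nr4a1, Nr4a2 and Ppard sit above the 3 Ad_GFP libraries, those of Nr3c1 sit below, and the shANG8 libraries of Nr1i3 sit above the shCtrl libraries.

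Other immediate early genes, which like the NR4A genes are induced without new protein synthesis, were read beside them. Of 10 tested genes on this list, 5 rose and 5 did not pass, with a median log2 fold change of 1.38. Egr1, a zinc finger factor, was read at 20.4, 26.6 and 13.0 CPM in the ANG8 libraries, against 8.10, 3.85 and 7.87 CPM in the Ad_GFP libraries (1.59, SE 0.30, edgeR adjusted p = 0.00264). Jun, a subunit of AP-1, was read at 56.8, 123 and 52.7 CPM in the ANG8 libraries, against 10.8, 19.4 and 27.9 CPM in the Ad_GFP libraries (1.999, SE 0.39, edgeR adjusted p = 0.00675). As with Nr4a1 and Nr4a2, ANG8 replicate 2 was the highest library for both. Fos, which pairs with Jun, rose by 2.13 (SE 0.55, edgeR adjusted p = 0.0165), a call lost without ANG8 replicate 1 or 2 or Ad_GFP replicate 1 or 2, and with the mitochondrial share in the model. Under shANG8 none of the 10 passed, and the median was -0.23.

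Ppard, Pparg, Thra, Thrb and Rora form the group of peroxisome proliferator-activated, thyroid hormone and ROR receptors. Ppard rose and the other 4 were not called. Ppard (ENSMUSG00000002250, chromosome 17, 28232700 to 28301474, plus strand, protein-coding) encodes PPAR-delta, a fatty acid sensor of many tissues. Its level was 22.8, 21.6 and 14.6 CPM in the ANG8 libraries, against 12.7, 9.33 and 11.2 CPM in the Ad_GFP libraries, without overlap. The means were 19.7 ± 4.47 CPM in ANG8 and 11.05 ± 1.67 CPM in Ad_GFP (SD, n = 3 each), a change of 0.83 on the log2 scale (SE 0.23, edgeR adjusted p = 0.0232). The adjusted p was 0.110 and 0.0755 without ANG8 replicates 1 and 2, 0.0935 and 0.0569 without Ad_GFP replicates 2 and 3, and 0.0836 once the mitochondrial share was in the model. In the knockdown arm the levels overlapped, at 9.63, 16.0 and 13.0 CPM in shANG8 and 10.9, 9.36 and 12.1 CPM in shCtrl (0.25, SE 0.23, edgeR adjusted p = 0.848). The difference between both effects, 0.57 (SE 0.32), had an edgeR adjusted p of 0.319.

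Pparg, the receptor that drives fat cell formation and is raised in fatty liver, had a similar change with a wider spread. Its level was 20.6, 15.2 and 22.7 CPM in the ANG8 libraries, against 4.93, 11.3 and 15.7 CPM in the Ad_GFP libraries, so that ANG8 replicate 2 lay below Ad_GFP replicate 3. The log2 fold change of 0.88 (SE 0.56) had an edgeR adjusted p of 0.351. In the knockdown arm it was 1.89, 5.74 and 13.6 CPM in shANG8 and 11.7, 6.97 and 8.51 CPM in shCtrl. All 4 adipocyte markers averaged under 1 CPM over the 12 libraries, with summed levels of 0.243 to 2.54 CPM in ANG8 and 0.443 to 2.29 CPM in Ad_GFP. Of 10 tested PPAR-gamma and PPAR-delta targets, 1 rose and 9 did not pass, with a median of 0.75. Fabp4, a fatty acid binding protein of adipocytes that macrophages and endothelium also make, rose by 1.53 (SE 0.42, edgeR adjusted p = 0.0264), a call lost without ANG8 replicate 2 or 3 or any 1 Ad_GFP library.

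Thrb, the main thyroid hormone receptor of hepatocytes, was read at 24.3, 28.4 and 24.6 CPM in the ANG8 libraries, against 36.8, 34.3 and 31.6 CPM in the Ad_GFP libraries. The groups did not overlap, but the change of -0.41 (SE 0.16) did not pass (edgeR adjusted p = 0.0941). Thra, the form that most other tissues use, was read at 16.5, 16.9 and 11.9 CPM in the ANG8 libraries, against 12.7, 13.0 and 12.7 CPM in the Ad_GFP libraries (0.24, SE 0.19, edgeR adjusted p = 0.462), and 5.70% of its exon bases overlap Nr1d1 on the other strand. Of 7 thyroid hormone receptor targets, 1 fell and 6 did not pass. That gene, Thrsp, a lipogenic gene that SREBP-1c and ChREBP also control, changed by -2.05 (SE 0.27, edgeR adjusted p = 0.000218). DESeq2, limma voom and a replicate block each called 4 of the 7, and 2 were called without ANG8 replicate 3 or Ad_GFP replicate 3. Rora changed by -0.16.

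Ratios of raw counts between related receptors do not depend on library scaling, and 3 of the 9 ratios computed are given. They were chosen after their values were seen, so they carry no test. Thra over Thrb was 0.681, 0.594 and 0.485 in the ANG8 libraries, against 0.344, 0.380 and 0.402 in the Ad_GFP libraries. Ppard over Ppara, the PPAR-alpha gene, was 1.85, 1.59 and 1.096 in the ANG8 libraries, against 0.557, 0.445 and 0.656 in the Ad_GFP libraries. Pparg over Ppara was 1.68, 1.12 and 1.71 in the ANG8 libraries, against 0.217, 0.537 and 0.921 in the Ad_GFP libraries. For each of these 3 ratios the groups did not overlap, while for every ratio computed but not given here ANG8 and Ad_GFP overlapped. Ppard and Pparg each had more counts than Ppara in every ANG8 library and fewer in every Ad_GFP library. These counts are not scaled to gene length, so they do not rank the transcript levels of these genes. Ppara itself lay lower in ANG8 than in Ad_GFP without overlap, though it was not called, and this also raises both PPAR ratios. Pparg alone overlapped between these groups. In the knockdown arm the libraries overlapped for all 3 ratios, and shANG8 replicate 3 was the highest of its arm for both PPAR ratios.

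**Figure D4:**
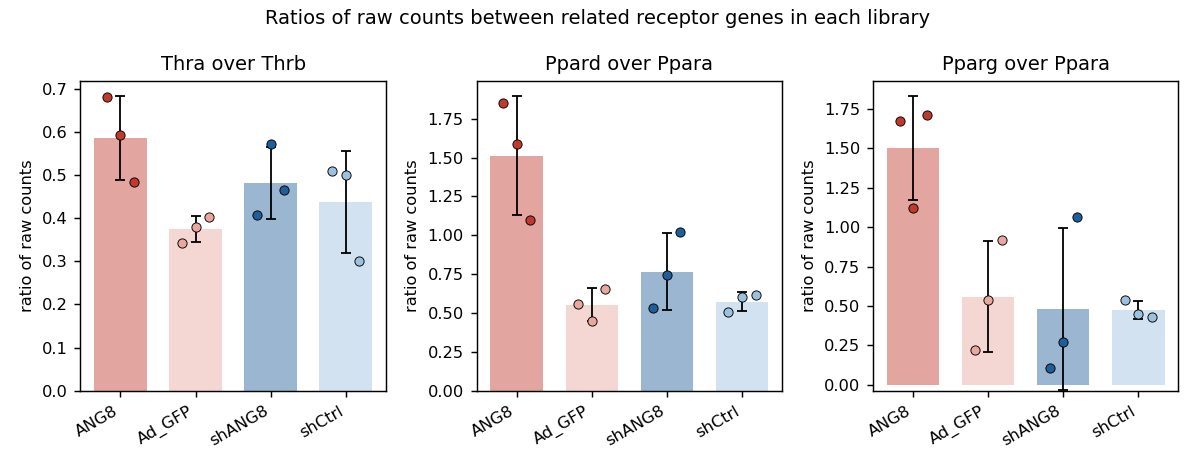
Ratio of raw counts of Thra to Thrb, Ppard to Ppara and Pparg to Ppara in every library, with points for libraries, bars for the mean of 3 libraries and whiskers for the SD. The 3 ANG8 libraries lie above the 3 Ad_GFP libraries in each panel, and the shANG8 and shCtrl libraries overlap.

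Among the receptors of sterols and foreign compounds, none was called. Nr1h3 (LXR-alpha) and Nr1h2 (LXR-beta) are oxysterol receptors that raise cholesterol export and fat synthesis. Under ANG8 they changed by 0.10 (SE 0.14) and -0.12 (SE 0.20). In the knockdown arm Nr1h3 was read at 124, 107 and 120.2 CPM in shANG8 and 89.9, 101 and 102 CPM in shCtrl, without overlap (0.26, SE 0.14, edgeR adjusted p = 0.697). Nr1h2 was read at 86.5, 82.8 and 54.7 CPM in shANG8 and 64.2, 55.1 and 45.5 CPM in shCtrl (0.44, SE 0.20, edgeR adjusted p = 0.604). Of 10 LXR targets, 1 rose and 3 fell under ANG8, with a median of -0.39. Abcg1, a cholesterol exporter that macrophages make in quantity, rose by 1.98 (SE 0.27, edgeR adjusted p = 0.000265). Srebf1, which encodes the lipogenic factor SREBP-1, Scd1 and Fasn fell by 0.94, 1.23 and 1.79 on the log2 scale, and insulin and SREBP-1 also control these genes. The call of Scd1 was lost without Ad_GFP replicate 2.

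Nr1i3 (ENSMUSG00000005677, chromosome 1, 171213970 to 171220701, plus strand, protein-coding) encodes the constitutive androstane receptor CAR, and Nr1i2 encodes PXR. Both switch on drug-metabolizing enzymes. Nr1i3 had the largest change of the tested receptors in the knockdown arm, at 20.01, 39.6 and 23.2 CPM in the shANG8 libraries, against 7.94, 15.4 and 9.65 CPM in the shCtrl libraries. Each shANG8 library lay above each shCtrl library, and the log2 fold change was 1.33 (SE 0.37), with an unadjusted p of 0.00348 and an edgeR adjusted p of 0.317. It passed with DESeq2 (adjusted p = 0.0395), and in edgeR with no filter on low counts (4.05e-06) and with a replicate block (0.00196). The replicate numbers are not taken as pairs. In each of the 4 groups replicate 2 was the highest library for this gene. Of its exon bases, 74.9% overlap Tomm40l on the other strand, and the sources used here do not name the strand setting of the counting, so reads of both genes may not be told apart. Tomm40l itself was read at 2.35, 4.09 and 3.66 CPM in shANG8 and 2.51, 2.60 and 2.13 CPM in shCtrl (0.48, SE 0.33, edgeR adjusted p = 0.772).

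Nr1i2 was read at 92.0, 131 and 134 CPM in the shANG8 libraries, against 77.9, 82.4 and 94.4 CPM in the shCtrl libraries. Replicate 1 of shANG8 lay within the range of shCtrl, and the change of 0.49 (SE 0.17) had an edgeR adjusted p of 0.467. Under ANG8, Nr1i2 changed by -0.18, without overlap between groups, and Nr1i3 by -0.15. The difference between both effects was -1.47 for Nr1i3 (SE 0.52, edgeR adjusted p = 0.114) and -0.67 for Nr1i2 (SE 0.24, edgeR adjusted p = 0.105). That of Nr1i3 passed with DESeq2 (adjusted p = 0.0394). In edgeR it passed with the mitochondrial share in the model (0.0176), with no filter on low counts (0.000202) and with a replicate block (0.00379). Of 20 CAR and PXR targets, 1 rose and 5 fell under ANG8 (median -0.22) and 0 were called under shANG8 (median 0.07). The largest fall was that of Cyp2c54, at 23.8, 38.4 and 19.4 CPM in ANG8 and 178, 182 and 109 CPM in Ad_GFP (-2.53, SE 0.31, edgeR adjusted p = 0.000218), a gene that shares near-identical stretches with Cyp2c37 and Cyp2c50 and is uncertain. Cyp2b10, the best known CAR target in mouse and picked here after its values were seen, was read at 0, 1.65 and 8.16 CPM in shANG8 and 0.814, 0.273 and 4.26 CPM in shCtrl. Replicate 3 was the highest library in both groups, and a near-identical stretch shared with Cyp2b13 makes the values of Cyp2b10 uncertain.

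Vdr, the vitamin D receptor, is near absent from hepatocytes and present in other liver cells. Its libraries held 0.724, 0.820 and 1.27 CPM in the ANG8 libraries, against 0.127, 0.0740 and 0.403 CPM in the Ad_GFP libraries. The groups did not overlap, but the change of 2.17 (SE 0.96), on a few counts per library, did not pass (edgeR adjusted p = 0.149).

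The group of Hnf4a, Nr5a2 and the orphan receptors held 7 tested genes, and none was called. Hnf4a was read at 539, 568 and 455 CPM in the ANG8 libraries, against 592, 649.8 and 599 CPM in the Ad_GFP libraries, without overlap (-0.24, SE 0.17, edgeR adjusted p = 0.413). Of 9 HNF4A targets, 5 fell and 4 did not pass, with a median of -0.78. Cyp8b1, the sterol 12-alpha-hydroxylase of bile acid synthesis, changed by -1.65 (SE 0.31), and the urea cycle gene Otc by -1.16 (SE 0.21). These targets are hepatocyte genes, and 6 of 8 hepatocyte markers fell too, with summed levels that overlapped between ANG8 and Ad_GFP. The part of hepatocyte content in the fall of the targets was not tested. The count of HNF4A targets called was 2 without ANG8 replicate 1 or 2 or Ad_GFP replicate 1, and 3 without Ad_GFP replicate 3.

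In the knockdown arm 5 of 32 genes (15.6%) were without overlap, with 12.9% over all tested genes. Nr5a2, the liver receptor homolog LRH-1 of bile acid and lipid control, was among them. It was read at 38.8, 39.4 and 39.3 CPM in the shANG8 libraries, against 25.99, 28.2 and 37.1 CPM in the shCtrl libraries (0.37, SE 0.18, edgeR adjusted p = 0.659). Under ANG8 it was at 19.8, 23.4 and 19.8 CPM, against 33.2, 25.6 and 20.7 CPM in Ad_GFP (-0.34, SE 0.19, edgeR adjusted p = 0.261). The difference between both effects was -0.70 (SE 0.26), with an unadjusted p of 0.0160 and an edgeR adjusted p of 0.121.

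Nr2c1, the testicular orphan receptor TR2, had a lower mean in ANG8 and in shANG8 than in their controls. It was read at 8.04, 6.80 and 10.3 CPM in the ANG8 libraries, against 11.9, 12.4 and 10.9 CPM in the Ad_GFP libraries (-0.48, SE 0.22, edgeR adjusted p = 0.162). The knockdown arm gave 8.41, 10.5 and 7.31 CPM in shANG8 and 11.5, 10.4 and 13.9 CPM in shCtrl (-0.45, SE 0.22, edgeR adjusted p = 0.647), where 1 library of each group lay within the other's range. The remaining 4, Nr6a1, Nr2f2, Nr2f6 and Nr2c2, changed by -0.04 to 0.78 under ANG8 and by 0.07 to 0.58 under shANG8. Of the exon bases of Nr2f6, 54.4% overlap Ocel1 on the other strand, and of those of Nr2c2, 30.7% overlap Mrps25. Nr2c2 also shares a near-identical stretch with another gene, so both values are uncertain.

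None of the 5 tested retinoid receptors was called. Rxrg, the scarcest of the 3 retinoid X receptors in these livers per kilobase, was read at 7.24, 5.57 and 5.88 CPM in the ANG8 libraries, against 7.47, 11.2 and 8.27 CPM in the Ad_GFP libraries. The groups did not overlap (-0.52, SE 0.23, edgeR adjusted p = 0.155). Rxra and Rxrb, which supply most of the RXR transcript, changed by -0.15 and -0.05. Rarg, a retinoic acid receptor, was read at 3.56, 4.56 and 3.37 CPM in the shANG8 libraries, against 5.90, 4.92 and 6.004 CPM in the shCtrl libraries, without overlap (-0.55, SE 0.27, edgeR adjusted p = 0.647). Rara changed by -0.01 under ANG8 and 0.22 under shANG8. Of 6 tested retinoic acid receptor targets, 1 rose under ANG8: Tgm2, a transglutaminase that macrophages also make, by 1.21 (SE 0.17, edgeR adjusted p = 0.000415).

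Of the steroid and estrogen-related receptors, Nr3c1 came closest to a call. Its level was 49.8, 64.7 and 45.5 CPM in the ANG8 libraries, against 72.5, 71.9 and 69.5 CPM in the Ad_GFP libraries. All ANG8 libraries lay below the tight Ad_GFP group, with means of 53.3 ± 10.1 CPM in ANG8 and 71.3 ± 1.61 CPM in Ad_GFP (SD, n = 3 each) and a change of -0.42 (SE 0.16, edgeR adjusted p = 0.0913). In edgeR it passed without ANG8 replicate 2 (-0.57, adjusted p = 0.0422), with a replicate block (-0.43, 0.0472) and with the mitochondrial share in the model (-0.55, 0.0338). In the knockdown arm it was at 78.9, 76.1 and 66.9 CPM in shANG8 and 74.7, 84.2 and 78.8 CPM in shCtrl. Of 15 glucocorticoid receptor targets, 5 fell under ANG8 and 10 did not pass (median -0.44). They included Pck1 (-1.30, SE 0.34) and G6pc (-2.31, SE 0.57), enzymes of glucose production that glucagon and insulin also control, and the EGF receptor inhibitor Errfi1 (-1.08, SE 0.22). Pck1 lost its call without ANG8 replicate 1 or Ad_GFP replicate 1 and with the mitochondrial share in the model, and G6pc without ANG8 replicate 1 or 3 or Ad_GFP replicate 2 and with no filter on low counts. The count was 1 without ANG8 replicate 1, 2 without Ad_GFP replicate 2, 2 with the mitochondrial share in the model and 3 without ANG8 replicate 2 or 3 or Ad_GFP replicate 1. Nr3c2, the mineralocorticoid receptor, Esr1, the estrogen receptor alpha, and Esrra, a regulator of mitochondrial genes, changed by -0.18, -0.03 and -0.09. Of 7 ERR targets, 1 fell: Uqcrfs1, a subunit of respiratory complex III (-0.55, SE 0.17, edgeR adjusted p = 0.0447), a call lost in 9 of 14 alternatives, among them each library left out other than ANG8 replicate 3.

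The 4 coregulators are Ncoa1 and Ncoa2, coactivators of the p160 family, Ncor1, a corepressor that carries histone deacetylase HDAC3, and Nrip1, the corepressor RIP140 of metabolic genes. None was called. Nrip1 was read at 20.8, 25.6 and 18.6 CPM in the ANG8 libraries, against 14.9, 17.5 and 15.3 CPM in the Ad_GFP libraries, without overlap (0.44, SE 0.19, edgeR adjusted p = 0.132). Ncoa2 was read at 23.8, 20.7 and 24.4 CPM in the ANG8 libraries, against 25.2, 24.7 and 25.6 CPM in the Ad_GFP libraries, also without overlap (-0.13, SE 0.15, edgeR adjusted p = 0.625). Ncoa1 and Ncor1 changed by 0.18 and 0.01. Under shANG8 all 4 lay between -0.06 and 0.04. Ncor1 holds a repeat-like stretch found in many transcripts, so its value is uncertain.

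**Figure D5:**
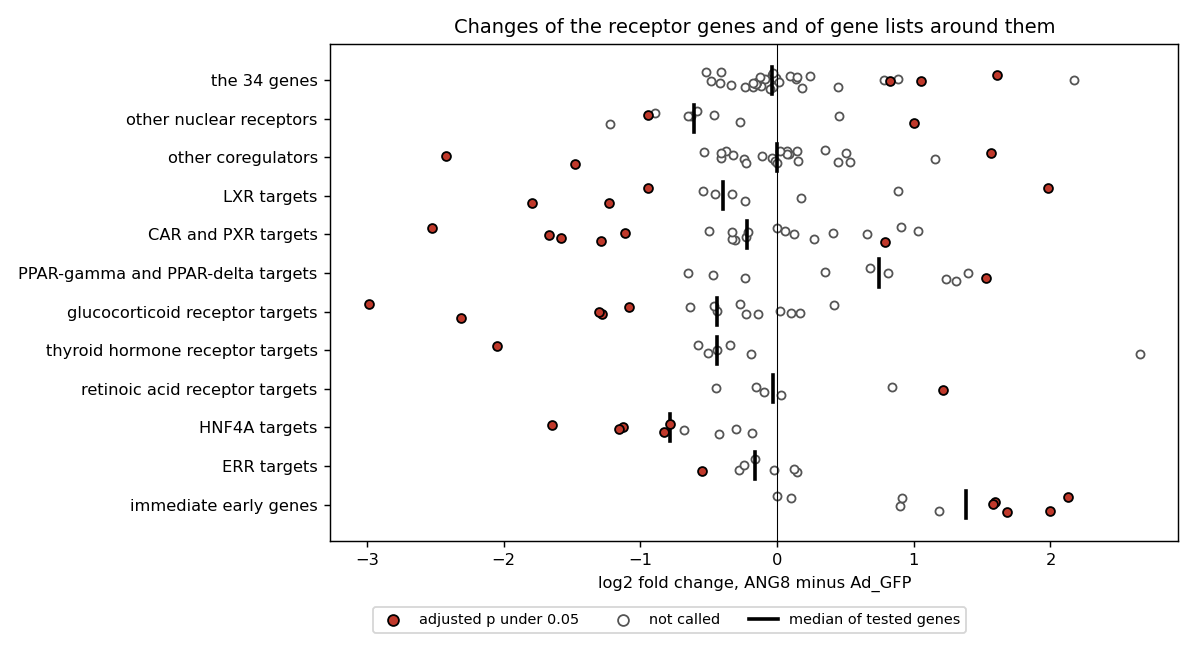
Log2 fold change of ANG8 minus Ad_GFP for the tested genes of the receptor set and of 11 lists of related genes, with 1 point per gene, filled where called at an adjusted p under 0.05, and a vertical bar at the median of each list. The receptor set is centred near 0 with a median of -0.04, the list of immediate early genes lies to the right at 1.38, and HNF4A targets lie to the left at -0.78.

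The knockdown comparison asked the same of shANG8 and shCtrl. EdgeR called 0 of 32 genes, where 0.191% of all tested genes were called (0.0613% up and 0.129% down), DESeq2 called 1 of them, Nr1i3 (adjusted p = 0.0395), and limma voom called 0. An unadjusted p under 0.05 was found for 3 (Nr1h2, Nr1i2 and Nr1i3), 9.38%, with 7.93% over all tested genes. Groups did not overlap for 5 of 32 (15.6%), with 12.9% over all tested genes: Nr5a2, Nr1h3 and Nr1i3 lay higher and Rarg and Nr4a2 lower in shANG8. Over all tested genes, 6.16% lay higher and 6.78% lower without overlap. The median log2 fold change was 0.12, with 0.01 over all tested genes. The median absolute change was 0.247, with 0.219 over all tested genes. All 5 sterol and xenobiotic receptors lay above 0, with a median of 0.49, as did 51.1% of all tested genes. In shCtrl minus Ad_GFP, which uses the same shCtrl libraries, 4 of these 5 lay below 0, with a median of -0.50. Over all tested genes 47.9% lay above 0 in that comparison, with a median of -0.02. Vdr, on 67 counts in all, is among the genes in both counts.

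The 2 control viruses were compared to show how far the receptor genes differ between shCtrl and Ad_GFP, which share libraries with the comparisons above. EdgeR called 0 of 32, where 0.0% of all tested genes were called. DESeq2 and limma voom called 0 of the 32 as well, and 2 genes had an unadjusted p under 0.05, with 8.76% over all tested genes. These were the 2 xenobiotic receptors, Nr1i2 at 77.9, 82.4 and 94.4 CPM in shCtrl and 119, 113 and 128 CPM in Ad_GFP (-0.50, SE 0.17, edgeR adjusted p = 0.442) and Nr1i3 (-0.91, SE 0.37, edgeR adjusted p = 0.512). For Nr1i2 each shCtrl library lay below each Ad_GFP library, and its shANG8 mean of 119 ± 23.4 CPM (SD, n = 3) was close to the Ad_GFP mean of 120.2 ± 7.84 CPM. Nr4a2 lay higher in shCtrl than in Ad_GFP by 0.82 (SE 0.42, edgeR adjusted p = 0.597), and its shANG8 libraries, at 1.52 to 2.28 CPM, lay within the Ad_GFP range of 0.949 to 2.89 CPM. Groups did not overlap for 5 of 32, with 16.1% over all tested genes (7.66% higher and 8.45% lower): Nr3c1 and Ncoa2 lay higher and Nr1i2, Ncoa1 and Nrip1 lower in shCtrl.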

How the data were processed

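The 12 libraries were made from total liver RNA extracted with Trizol and prepared with a NEBNext Ultra RNA kit, per the labels' protocols. The deposited table holds raw counts of reads per gene for 54532 genes, which the authors made with featureCounts 1.5.0-p3 after CASAVA 1.8.2, per the submitters' processing notes. These notes name the build mm9, but 98.3% of the genes have coordinates identical to GENCODE vM21 on GRCm38, so coordinates are given on that build. No aligner or strand setting is named in the sources used here.

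Libraries held 12537083 to 15144312 counts. Genes were filtered with filterByExpr, scaled by TMM and tested with edgeR 4.0.16 (R 4.3.3), by quasi-likelihood in 1 fit over all 4 groups, with Benjamini-Hochberg adjustment over 14686 genes at a threshold of 0.05. The comparisons were ANG8 minus Ad_GFP, shANG8 minus shCtrl, the difference between both, and shCtrl minus Ad_GFP. CPM are TMM-scaled, computed from the counts. Alternatives used DESeq2 1.42.0, limma 3.58.1 (voom), RLE scaling, no filter, the compared groups alone, no mitochondrial genes, each replicate left out, a replicate block and, chosen after seeing the data, the mitochondrial share as a covariate. Counts of replicates differed by more than sampling noise (chi-square of 14.5 to 149.6 per gene).

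The 34 genes and the 11 lists were chosen with earlier results of these data known. Klf9 and Dusp1 each stand in 2 lists. Full values are given for genes called in any comparison or without overlap in an overexpression or knockdown comparison, and up to 4 genes of each list, those with the smallest p under overexpression, could be named. Exon overlap and near-identical stretches (BLAST 2.17.0) were read from GENCODE vM21, and promoters from RefSeq on GRCm38.p6. The code was tested on simulated data. Some genes of the lists are not reported here.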

Additional observations from a re-analysis of the deposited data

Results flagged for a closer look

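For Nr4a1, Nr4a2 and 19 genes of the lists the effect of the ANG8 virus (ANG8 minus Ad_GFP) differed from that of the knockdown virus (shANG8 minus shCtrl) by edgeR's test of the difference itself. Values are the first effect minus the second, on the log2 scale. Of all tested genes 6.62% were called for this difference, which shares the ANG8 and Ad_GFP libraries with the overexpression comparison. None of the genes named here was called under knockdown. Their knockdown effects ranged from -1.18 for Egr1 to 0.76 for Pck1. Some lay near 0, with 0.06 for Abcg1, 0.03 for Cyp2c29, -0.02 for Ces2a and -0.07 for Jun. Among the nuclear receptor genes it was 1.804 for Nr4a1 and 2.29 for Nr4a2, and among immediate early genes 2.77 for Egr1, 2.88 for Fos, 2.07 for Jun and 1.87 for Klf6. Outside the 34 genes, the coactivator Ppargc1a had -1.83. LXR targets gave 1.93 for Abcg1, -1.14 for Srebf1, -1.71 for Scd1 and -2.12 for Fasn. CAR and PXR targets gave -1.32 for Cyp2c29, -1.95 for Cyp2c37, -2.11 for Cyp2c50, -3.25 for Cyp2c54 and -1.095 for Ces2a, of which all but Cyp2c29 have near-identical copies and are uncertain. The remaining genes were Pck1 at -2.06, Errfi1 at -1.37, Thrsp at -2.23, Otc at -1.11 and Tgm2 at 1.46. Of the 19 list genes, 11 were called in every alternative run. The call was kept in 8 of 19 alternative runs for Fos, 9 for Jun and 5 for Ppargc1a, and in 9 for Nr4a1 and 10 for Nr4a2.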

How the results depend on the processing

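Of the 34 genes, 3 were called under overexpression and the count was 1 (Nr3c1) with the mitochondrial share as a covariate, and 0 to 3 with 1 library left out: 0 without ANG8 replicate 1 or Ad_GFP replicate 3, and 1 without ANG8 replicate 2 or Ad_GFP replicate 1 or 2. Over all genes, 1978 were called, and 995 to 1684 with 1 library left out (995 without ANG8 replicate 1, 1307 without ANG8 replicate 2, 1080 without Ad_GFP replicate 1, 1133 without Ad_GFP replicate 2). Under knockdown the count of 0 became 1 (Nr1i3) with DESeq2, with no filter on low counts and with a replicate block, and the 28 of all genes became 102, 132 and 55, and 47 with the mitochondrial covariate. With 1 library left out, 21 to 39 genes were called. For the difference, the 2 genes became 1 with limma voom, 1 (Nr1i3) with the mitochondrial covariate, and 0 to 2 with 1 library left out (0 without ANG8 replicate 1 or 2, Ad_GFP replicate 1, or shCtrl replicate 1 or 2), and 3 (Nr1i3 in addition) with DESeq2, with no filter and with the block. The 972 of all genes became 1541 with DESeq2, 1510 with no filter, 1550 with the block and 473 to 1227 with 1 library left out. Between control viruses the count of 0 became 1 (Nr1i3) with no filter, and the 0 of all genes became 38 with DESeq2, 96 with no filter, 5 with the block and 0 to 10 with 1 library left out.

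Between control viruses, Ppard (-0.04) changed sign and lay at -0.13 to 0.0800 with 1 library left out, and Nr4a1 (-0.12) at -0.42 to 0.12. The causes were not tested. Same-numbered libraries deviated together only in part (r of -0.067 to 0.149 under overexpression and 0.034 to 0.186 under knockdown), so the numbers are not taken as pairs, although all 3 such pairs of shANG8 and Ad_GFP, groups not compared here, had r of 0.172 to 0.255. With the replicate block, 2600 genes were called under overexpression, among them 4 of the 34 (Nr3c1 in addition), and Nr1i3 had an adjusted p of 0.00196 under knockdown and 0.00379 for the difference. Over all 12 libraries Nr4a1 and Nr4a2 had 854 and 526 counts, Vdr had 67, and Hnf4g and Rarb had too few to test.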

Other observations

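Other nuclear receptors and coregulators, outside the 34 genes, were read as lists. Ppara, the receptor that drives fatty acid oxidation in fasting liver, was read at 12.3, 13.6 and 13.3 CPM in the ANG8 libraries, against 22.7, 21.0 and 17.0 CPM in the Ad_GFP libraries, without overlap (-0.63, SE 0.21, edgeR adjusted p = 0.0519).

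Of 25 tested coregulators, 1 rose and 2 fell under ANG8. Ppargc1a, the coactivator PGC-1-alpha of glucose production and mitochondrial genes, was read at 2.68, 3.52 and 4.25 CPM in the ANG8 libraries, against 10.8, 13.4 and 5.04 CPM in the Ad_GFP libraries (-1.48, SE 0.38, edgeR adjusted p = 0.0179). Lpin1, a phosphatidate phosphatase that also acts in the nucleus with PGC-1-alpha, was read at 57.9, 50.8 and 53.5 CPM in the ANG8 libraries, against 169.6, 419.7 and 283 CPM in the Ad_GFP libraries (-2.43, SE 0.65, edgeR adjusted p = 0.0397). For both genes the groups did not overlap, and Ppargc1a lost its call without ANG8 replicate 1 or 2 or Ad_GFP replicate 1 or 2. Ncoa7 was read at 3.40, 3.28 and 3.34 CPM in the ANG8 libraries, against 1.39, 0.963 and 1.01 CPM in the Ad_GFP libraries (1.56, SE 0.48, edgeR adjusted p = 0.0391). Lpin1 and Ncoa7 lost their calls without any 1 library of ANG8 or Ad_GFP. The count moved too: 0 of the 25 coregulators were called without ANG8 replicate 1 or 2 or Ad_GFP replicate 1 or 2.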
